A study of Mus musculus with 8 samples.

Results

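Transcripts of 10 mouse genes of fibroblast growth factor (FGF) signalling were followed in calvarial osteoblastic cells. The genes were chosen by symbol for their part in skull bone growth, with earlier results of these data known. All 10 were found among the 24421 genes counted in every library. They comprise the receptors Fgfr1, Fgfr2 and Fgfr3, the ligands Fgf2, Fgf7 and Fgf18, and the feedback genes Spry1, Spry2, Spry4 and Dusp6. The cells came from the skull bone of newborn C57BL/6 mice, either wild type (WT) or Def6-/-, which lack Def6, a guanine nucleotide exchange factor. Poly-A RNA was sequenced before (day 0) and 12 days into culture in osteogenic medium, which held ascorbic acid and β-glycerophosphate. Each of the 4 groups (WT day 0, WT day 12, Def6-/- day 0, Def6-/- day 12) had 2 libraries, and the labels do not say which animals or cultures gave them, so p-values measure only the spread between these libraries.

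FGFs are secreted ligands that bind tyrosine kinase receptors together with heparan sulfate chains on the cell surface. The receptors signal largely through Ras and the kinase ERK, and ERK in turn switches on inhibitors of the same route: Sprouty proteins act on receptor signalling to Ras, and Dusp6 removes phosphate from ERK in the cytoplasm. In the skull vault, activating changes in FGFR1, FGFR2 or FGFR3 are known causes of early suture fusion, and Fgf18 supports osteogenic growth of the calvaria.

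The receptor genes lie on separate chromosomes. By RefSeq positions on GRCm38.p6, Fgfr3 lies at chr5:33721724-33737068, Fgfr2 at chr7:130162451-130266808 and Fgfr1 at chr8:25518759-25575718. RefSeq windows of 250 bases upstream of a transcript start were found for 8 of the 10 genes, 9 windows in all, since Fgfr3 has 2 starts. The window before the first Fgfr3 start is shown because Fgfr3 was the gene that rose with day in both genotypes, and that of Fgfr2 for contrast, as a receptor of high level that was not called. Capitals mark the GC box, a short promoter element, spelled GGGCGG on the gene's strand or CCGCCC for a match on the other strand.
Fgfr3, chr5:33721474-33721723, plus strand: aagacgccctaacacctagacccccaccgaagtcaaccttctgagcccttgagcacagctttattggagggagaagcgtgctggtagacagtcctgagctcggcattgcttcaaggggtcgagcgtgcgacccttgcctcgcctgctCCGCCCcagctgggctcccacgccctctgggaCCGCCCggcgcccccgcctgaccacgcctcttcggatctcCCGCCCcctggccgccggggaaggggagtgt
Fgfr2, chr7:130266809-130267058, minus strand: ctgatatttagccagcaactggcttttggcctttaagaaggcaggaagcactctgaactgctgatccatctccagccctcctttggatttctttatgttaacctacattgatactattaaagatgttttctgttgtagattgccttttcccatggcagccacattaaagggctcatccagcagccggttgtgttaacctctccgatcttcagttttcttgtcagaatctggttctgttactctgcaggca
The Fgfr3 window held 3 GC boxes, 66.8% G and C and 19 CpG dinucleotides, whereas the Fgfr2 window held no GC box, 44% G and C and 2 CpG dinucleotides. A GC box lay in 5 of the 9 windows, against 32.7% of 32851 RefSeq windows of the same length. These were both Fgfr3 windows and those of Fgf2, Fgf18 and Spry1, and of these genes only Fgfr3 was called between days. Fgfr1, called in WT, had no window. A part of the GC box in the levels was not tested. Searched on both strands, the ETS motif CCGGAAG, the AP-1 motif TGACTCA, the CRE motif TGACGTCA, the RUNX motif TGTGGTT and the TATA box TATAAA were in 0 of the 9 windows. Among all windows these motifs were found in 6.91%, 4.46%, 1.55%, 4.4% and 12.4%, in that order, and no motif searched overlapped another kind in these windows. In the GENCODE annotation, Fgfr3 shares 998 exon bases with G630022F23Rik, which is annotated on the other strand and was not analysed here.

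The libraries held 2414856 to 3482837 reads on genes, 28.8% to 35.3% of all reads. Def6 itself had 147 and 112 reads in the WT day 0 libraries and 186 and 137 at day 12, against 0 and 1 in Def6-/- at day 0 and 2 and 2 at day 12, so the genotype labels held. Bone markers were present: Alpl, the alkaline phosphatase of osteoblasts, rose at day 12 in both genotypes, and 6 of 10 osteoblast markers rose in each. The WT day 0 pair stood apart, with a correlation of 0.927 between its libraries against 0.9749 to 0.9783 in the other pairs, and the FGF genes are given library by library. All 13 macrophage markers rose at day 12 in both genotypes, from a summed level of 245 to 414 normalized CPM to 3220 to 6387 in WT and from 189 to 295 to 3516 to 3982 in Def6-/-. Of the markers of other cells tested, 6 of 7 adipocyte markers rose in WT and 7 of 7 in Def6-/-, chondrocyte markers moved both ways (3 of 7 up and 1 down in WT, 4 up and 2 down in Def6-/-), and 2 of 6 smooth muscle markers (Acta2 and Tagln) fell in each. Of 10 cycling cell markers 2 fell in each genotype and none rose. The endothelial list had 1 gene above the filter, Tek, called higher in WT, and the epithelial and glial list had 0 of 7. Between genotypes at day 12, 4 of 7 adipocyte markers (Plin1, Cfd, Adipoq and Fabp4) were called higher in Def6-/-. So was 1 of 10 osteoblast markers (Bglap), and no gene of the other marker lists was called. The criterion was an unadjusted p under 0.05 and over 1.2-fold, which 1.4% of all genes tested passed. The part of these cells in the FGF values was not tested, and in bulk RNA a change in the number of cells of a type cannot be told apart from a change in RNA per cell.

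Levels are given as normalized CPM, that is reads of a gene per 1000000 reads on genes, scaled between libraries with TMM factors. Differences are log2 values from limma on log2(normalized CPM + 1), in 1 fit of all 8 libraries, and a difference between days was called at an adjusted p under 0.05 over 12348 genes (Benjamini-Hochberg). All 10 genes passed the filter, which asked for a group with a mean deposited CPM of 1 or more.

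**Figure D1:**
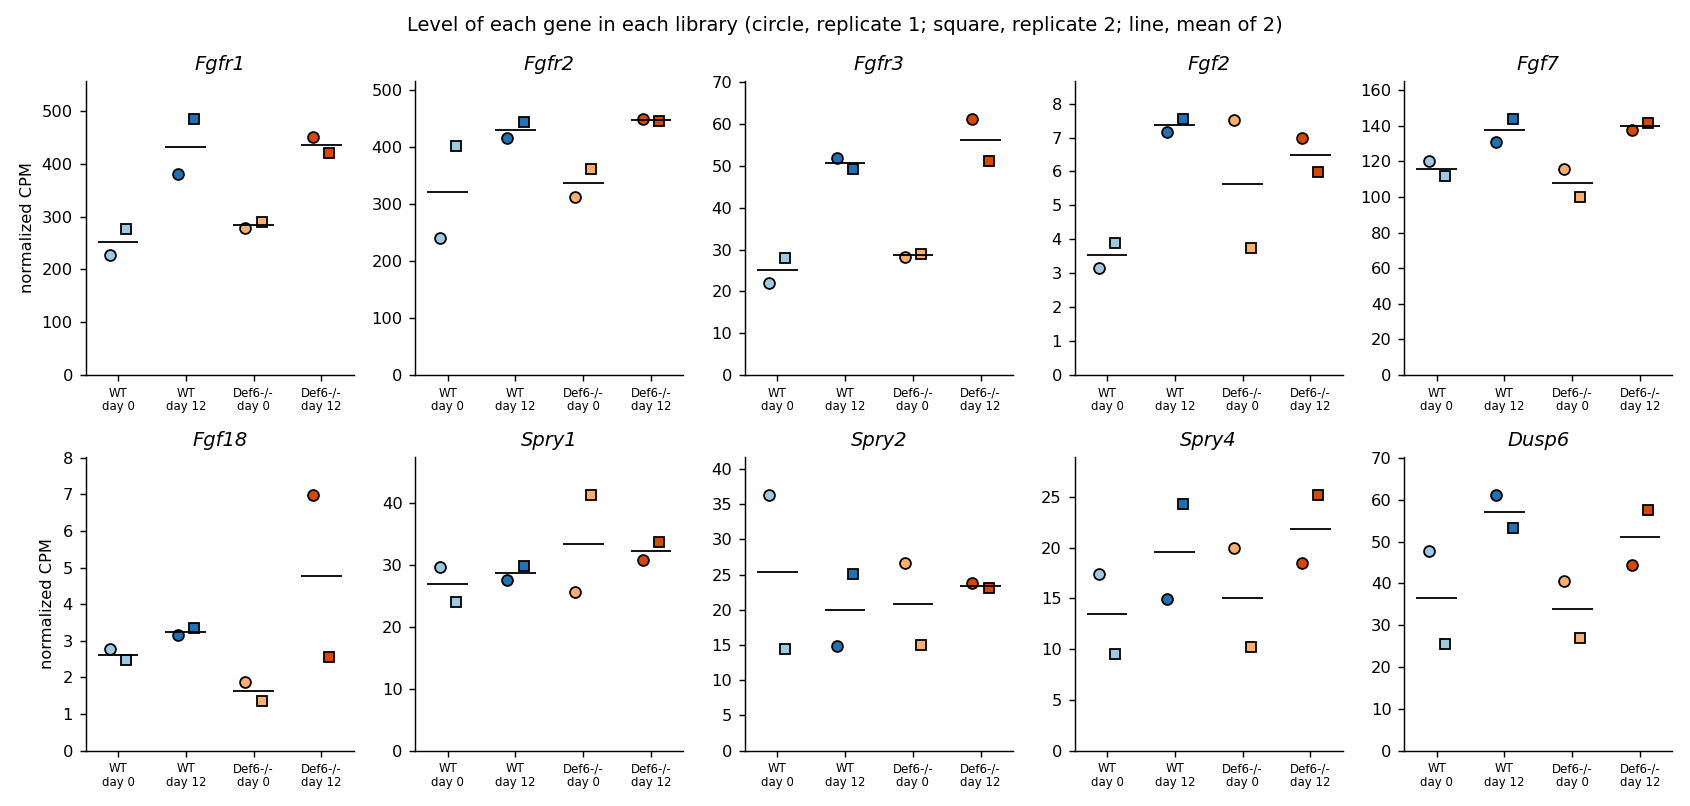
Normalized CPM (vertical axis, linear from 0) of each of the 10 genes in the 8 libraries, by group; circles are replicate 1, squares replicate 2 and lines the mean of 2. Fgfr3 lies between 22.1 and 29.0 in the 4 day 0 libraries and between 49.4 and 61.2 in the 4 day 12 libraries.

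The first question was which FGF genes changed as the cells matured. In WT cells Fgfr1 and Fgfr3 rose at day 12, and in Def6-/- cells Fgfr3 rose, by 1.71-fold for Fgfr1 and 1.93-fold to 2-fold for Fgfr3. No ligand and no feedback gene passed the test in either genotype. Thus 2 of 10 genes were called higher in WT, where 12.7% of all genes tested were, and 1 of 10 in Def6-/-, where 12% were. None of the 10 was called lower by limma, against 5.64% of all genes in WT and 4.79% in Def6-/-, and none had an unadjusted p under 0.05 in that direction, as 13.7% and 11.5% of all genes had. edgeR and DESeq2 on reads recovered from the CPM gave 2 and 1 genes higher and 0 lower as well. The 10 genes had a median difference of 0.50 in WT and 0.49 in Def6-/-, against -0.0015 and 0.0090 over all genes tested. Both day 12 libraries lay above both day 0 libraries for 7 of the 10 genes in WT and 6 in Def6-/-, where 29.3% and 35.2% of all genes did so.

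Fgfr3, a receptor known for its restraint of growth plate cartilage, measured 22.1 and 27.9 normalized CPM in the WT day 0 libraries and 51.9 and 49.4 at day 12. In Def6-/- it measured 28.2 and 29.0 at day 0 and 61.2 and 51.2 at day 12. All 4 day 12 libraries lay above all 4 day 0 libraries. The log2 difference was 0.999 (SE 0.21, 95% interval 0.52 to 1.48, limma adjusted p = 0.0121) in WT and 0.95 (SE 0.21, 0.47 to 1.42, adjusted p = 0.0157) in Def6-/-. With 2 libraries per group the calls leaned on single libraries: in WT the adjusted p was 0.119 without WT day 12 replicate 1 and 0.0807 without replicate 2, at differences of 0.93 and 1.03. In Def6-/- it was 0.108 and 0.0855 without the first or second day 0 library, 0.142 and 0.0651 without the first or second day 12 library, and 0.0569 without WT day 12 replicate 1. The WT call was also lost in a fit of the 2 WT groups alone (adjusted p = 0.0805), and the Def6-/- call with the CPM as deposited (0.82, adjusted p = 0.079). Over all 8 left-out libraries the difference stayed between 0.82 and 1.16.

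Fgfr1, the main FGF receptor of mesenchymal cells, measured 227 and 277 normalized CPM at day 0 in WT and 381 and 485 at day 12. The Def6-/- libraries held 279 and 291 at day 0 and 451 and 420 at day 12. Day 12 was above day 0 without overlap in both genotypes. The WT difference was 0.77 (SE 0.19, 95% interval 0.35 to 1.201, limma adjusted p = 0.0219). In Def6-/- it was 0.61 (SE 0.19, 0.18 to 1.04) with an adjusted p of 0.0573, which missed the threshold. The WT call was lost without WT day 12 replicate 1 (adjusted p = 0.0734) or 2 (0.193), and without either Def6-/- day 12 library (0.0525 and 0.0524), which enter through the shared estimate of the spread. It was also lost with the CPM as deposited (adjusted p = 0.0707) and in a fit of the 2 WT groups alone (0.136). Conversely, Fgfr1 passed in Def6-/- in a limma fit of its 2 groups alone (adjusted p = 0.00352). That fit called 3917 of all genes tested, against 2075 in the fit of 8 libraries. Without WT day 0 replicate 1 or 2, the Fgfr1 difference in Def6-/- was 0.61 and passed. Those fits leave 1 library in WT day 0, and more of all genes passed in them than in the fit of 8 libraries. The difference between the day changes of Fgfr1 in the 2 genotypes was -0.16 (95% interval -0.77 to 0.44, limma adjusted p = 0.9998). Fgfr1 shares 164 exon bases with the antisense gene Gm16159, which had 4 to 16 reads.

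Fgfr2, whose activating changes in the skull are a known cause of syndromic suture fusion, measured 240 and 401 normalized CPM in the WT day 0 libraries and 416 and 444 at day 12. Def6-/- gave 312 and 361 at day 0 and 448 and 445 at day 12. Day 12 was higher without overlap in both genotypes, but the WT day 0 libraries differed by more than the mean change. Neither difference passed: 0.47 (95% interval -0.07 to 1.01, limma adjusted p = 0.212) in WT and 0.41 (-0.13 to 0.96, adjusted p = 0.294) in Def6-/-. Without WT day 0 replicate 2, which leaves 1 library in that group, the WT difference was 0.84 and passed. The Def6-/- difference was 0.41 without WT day 0 replicate 1 or 2 and passed in both fits. In the fits where Fgfr2 passed, more of all genes did so than with all libraries. In the GENCODE annotation Fgfr2 runs to chr7:133123350, past its RefSeq end at 130266808. Over that longer span it shares 314 exon bases with Ctbp2, which had 101 to 173 reads.

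**Figure D2:**
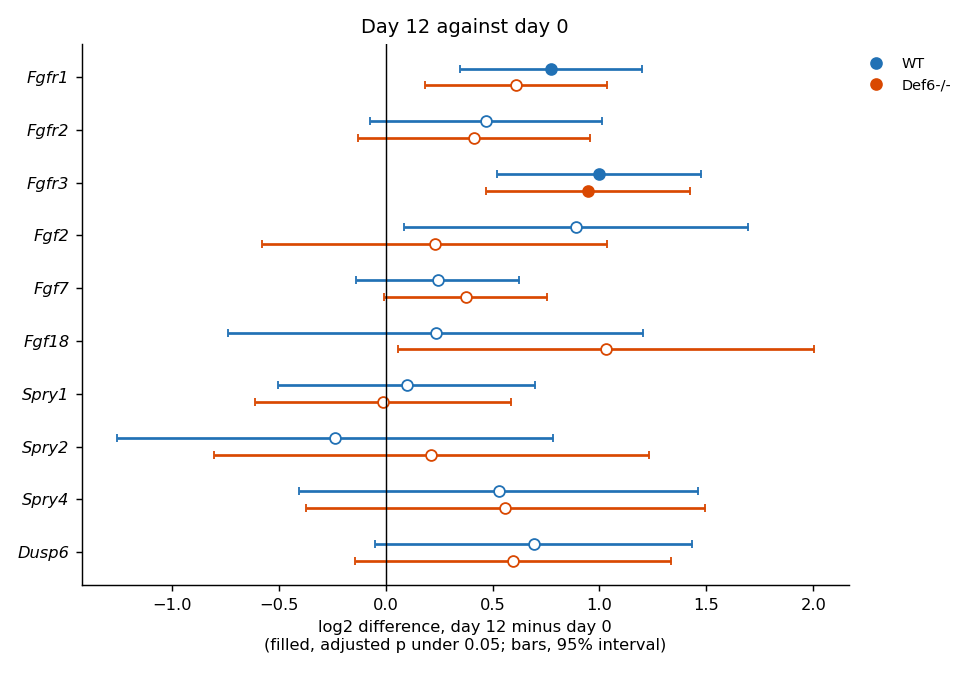
Log2 difference between day 12 and day 0 (horizontal axis) for each gene in WT (blue) and Def6-/- (orange), with the 95% interval as bars and filled points for an adjusted p under 0.05. Filled points are Fgfr1 in WT (0.77) and Fgfr3 in both genotypes (0.999 and 0.95).

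Fgf7, a mesenchymal ligand that acts mainly on epithelial Fgfr2 isoforms, measured 120 and 112 normalized CPM at day 0 and 131 and 144 at day 12 in WT, and 116 and 100 against 138 and 142 in Def6-/-. The days did not overlap in either genotype, yet the differences of 0.24 (95% interval -0.14 to 0.62, limma adjusted p = 0.355) and 0.38 (-0.0063 to 0.76, adjusted p = 0.173) missed the threshold. Without WT day 0 replicate 1 or 2, the Fgf7 difference in Def6-/- was 0.37 or 0.38 and passed. Those fits leave 1 library in WT day 0, and more of all genes passed in them than with all libraries.

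Fgf2, a ligand stored in bone matrix and bound by heparan sulfate, was at 3.16 and 3.89 normalized CPM in WT at day 0 and 7.17 and 7.54 at day 12. Its Def6-/- libraries gave 7.53 and 3.75 at day 0 and 6.98 and 5.98 at day 12. Each level rests on 8 to 25 reads. WT libraries of the 2 days were separate, while the first Def6-/- day 0 library lay above both Def6-/- day 12 libraries. The WT difference was 0.89 (95% interval 0.08 to 1.70, limma adjusted p = 0.121) and that in Def6-/- 0.23 (-0.58 to 1.04, adjusted p = 0.727). Fgf2 shares 640 exon bases with the antisense gene Nudt6, which had 13 to 44 reads. Whether reads were counted by strand is not given in the sources used here. It is therefore not known whether reads in the shared bases were given to a gene or set aside as ambiguous. Fgf2 also shares 255 exon bases with Gm43439, not analysed here.

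Fgf18, the ligand tied to calvarial bone growth, had 4 to 17 reads per library. In WT it measured 2.76 and 2.47 normalized CPM at day 0 and 3.16 and 3.35 at day 12. In Def6-/- it measured 1.88 and 1.36 at day 0 and 6.98 and 2.56 at day 12. A single library, Def6-/- day 12 replicate 1, lay above all the others, of which the next was WT day 12 replicate 2 at 3.35. The difference in Def6-/- was 1.03 (95% interval 0.06 to 2.002, limma adjusted p = 0.144) and in WT 0.23 (-0.74 to 1.21, adjusted p = 0.744).

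Dusp6 had the largest day difference among the feedback genes in both genotypes. In WT it measured 47.8 and 25.4 normalized CPM at day 0 and 61.1 and 53.2 at day 12, and in Def6-/- 40.6 and 26.9 against 44.3 and 57.6. The days did not overlap. The differences were 0.69 (95% interval -0.05 to 1.43, limma adjusted p = 0.179) and 0.60 (-0.14 to 1.34, adjusted p = 0.264), so Dusp6 was not called. Without WT day 0 replicate 1, which leaves 1 library in that group, the WT difference was 1.14 and passed. The Def6-/- difference was 0.60 without WT day 0 replicate 1 or 2 and passed in both fits. In the fits where Dusp6 passed, more of all genes did so than with all libraries.

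The Sprouty genes, which encode inhibitors of receptor signalling to Ras, overlapped between days in both genotypes. Spry1 shares 710 exon bases with Gm42922, annotated on the other strand and not analysed here. Spry1 measured 29.6 and 24.03 normalized CPM at day 0 and 27.6 and 29.7 at day 12 in WT, and 25.6 and 41.2 against 30.8 and 33.7 in Def6-/-. Spry2 gave 36.3 and 14.5 at day 0 and 14.9 and 25.1 at day 12 in WT, and 26.7 and 15.0 against 23.8 and 23.1 in Def6-/-. For Spry4 the WT libraries held 17.4 and 9.54 at day 0 and 14.9 and 24.3 at day 12, and the Def6-/- libraries 19.9 and 10.2 against 18.5 and 25.2. The log2 differences ran from -0.24 (Spry2, 95% interval -1.26 to 0.78) to 0.53 (Spry4, -0.40 to 1.46) in WT, and from -0.01 (Spry1, -0.61 to 0.59) to 0.56 (Spry4, -0.37 to 1.49) in Def6-/-.

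At day 0, replicate 1 lay above replicate 2 in both genotypes for 5 of the 10 genes (Fgf7, Fgf18, Spry2, Spry4 and Dusp6). It lay below in both for 3 (Fgfr1, Fgfr2 and Fgfr3), where 33.6% and 29.5% of all genes tested did so. In WT day 0, replicate 1 lay above replicate 2 by 1.27 on the log2 scale for Spry2, 0.80 for Spry4 and 0.88 for Dusp6. In Def6-/- day 0 the gaps were 0.79, 0.90 and 0.58, while Spry1 gave 0.29 in WT and -0.67 in Def6-/-. Of 9 ERK-responsive transcription genes, replicate 1 was above replicate 2 in both genotypes at day 0 for 6 (Etv4, Egr1, Fosl1, Myc, Phlda1 and Ier3) and below in both for 2 (Etv1 and Ccnd1), where 33.6% and 29.5% of all genes tested were. At day 12 the gaps were -0.67 in WT and -0.43 in Def6-/- for Spry4, both opposite to day 0. They were 0.20 and -0.37 for Dusp6, and -0.71 and 0.04 for Spry2. With 2 libraries a group, no test was made of these gaps.

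The second question was whether the loss of Def6 changed these genes. At day 0, none of the 10 genes passed the criterion of the study for genotype (p under 0.05 and over 1.2-fold), which 2.3% of all genes tested passed. At day 12 none did either, against 1.4% of all genes. By limma the lowest unadjusted p was 0.195 at day 0 and 0.466 at day 12, so 0 of 10 had an unadjusted p under 0.05, and edgeR and DESeq2 called 0 at both days. Differences ran from -0.47 (Fgf18) to 0.50 (Fgf2) at day 0 and from -0.17 (Dusp6) to 0.33 (Fgf18) at day 12, with medians of 0.13 and 0.10 against -0.02 and -0.00052 over all genes. The libraries of the genotypes did not overlap for 3 of the 10 genes at day 0 (Fgfr1 and Fgfr3 higher, Fgf18 lower in Def6-/-) and for 3 at day 12 (Fgfr2 and Spry1 higher, Fgf2 lower), where 22.6% and 32.7% of all genes did not.

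Among the receptors, the intervals for Def6-/- against WT at day 12 were -0.41 to 0.44 for Fgfr1, -0.49 to 0.60 for Fgfr2 and -0.34 to 0.62 for Fgfr3. At day 0 they were -0.24 to 0.61, -0.43 to 0.65 and -0.28 to 0.67. For the low ligands the intervals were wider, at day 0 -0.31 to 1.30 for Fgf2 and -1.44 to 0.50 for Fgf18. Fgf7 (-0.10) and Dusp6 (-0.07) were slightly lower in Def6-/- at day 0, and each turned to slightly higher (0.04 and 0.06) with the CPM as deposited, a scaling that moves the median of all genes at day 0 from -0.02 to 0.10. Without WT day 0 replicate 2, Fgfr2 (0.48) and Spry2 (-0.83) passed the criterion at day 0, in a fit where 37% of all genes passed. Without Def6-/- day 0 replicate 2, Fgf2 did (0.92), where 1.93% of all genes passed.

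**Figure D3:**
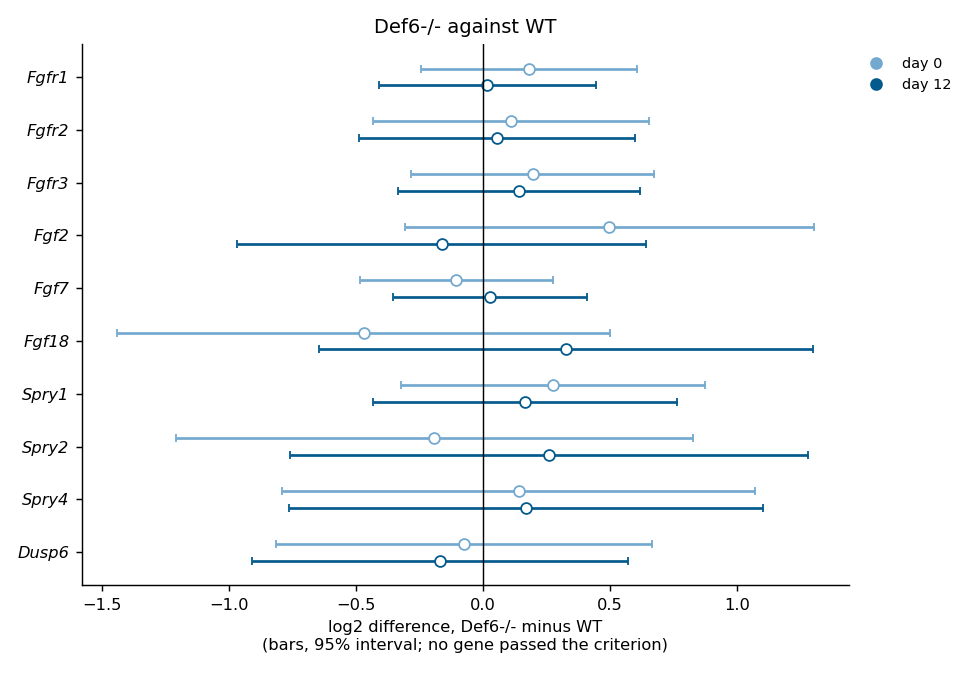
Log2 difference between Def6-/- and WT (horizontal axis) for each gene at day 0 (light) and day 12 (dark), with 95% intervals as bars. Every interval crosses 0, and the widest belong to Fgf2, Fgf18, Spry2 and Spry4.

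The change from day 0 to day 12 was also compared between the genotypes as an interaction. It passed an unadjusted p under 0.05 for 0 of the 10 genes in limma, edgeR and DESeq2, against 1.13% of all genes tested. The values ran from -0.66 for Fgf2 (95% interval -1.80 to 0.48) to 0.80 for Fgf18 (-0.58 to 2.17), each with a limma adjusted p of 0.9998. Without Def6-/- day 12 replicate 2, the Fgf18 interaction was 1.38 and passed. It then rests on the single Def6-/- day 12 library left, at 6.98 normalized CPM and 17 reads. Without WT day 0 replicate 2, those of Fgfr2 (-0.43) and Spry2 (1.09) passed, in a fit where 26.9% of all genes did.

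To compare levels between genes, normalized CPM was divided by the length of the longest principal transcript in kb. Fgfr2 was the highest in all 4 groups, with 96.5, 129, 101 and 134 CPM per kb in WT day 0, WT day 12, Def6-/- day 0 and Def6-/- day 12, followed by Fgfr1 (50.2, 86.2, 56.7 and 86.7) and Fgf7 (43.4, 51.4, 40.4 and 52.3). The libraries of these neighbours did not overlap in any group. Dusp6 was the fourth in each group, from 12.1 to 20.4 CPM per kb, and its libraries overlapped those of the next gene at day 0 but not at day 12. Fgfr3 was the seventh at day 0 (5.89 in WT and 6.74 in Def6-/-) and the fifth at day 12 (11.9 and 13.2), where it overlapped Spry1 in Def6-/- but not in WT. Divided instead by all exon bases of the gene, an alternative chosen after seeing the data, the first 3 lay closer and changed order. For Fgfr2 these bases come from the GENCODE gene that runs to chr7:133123350. Fgf7 then led at day 0 (35.7 in WT and 33.2 in Def6-/-, against 31.04 and 32.5 for Fgfr2) and Fgfr1 at day 12 (43.9 and 44.1, against 41.6 and 43.2), so the order of these 3 depends on the length used. By the principal transcript, Fgf2 was last in all 4 groups, from 0.59 to 1.23, and overlapped Fgf18, the gene before it, in Def6-/- day 0.

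**Figure D4:**
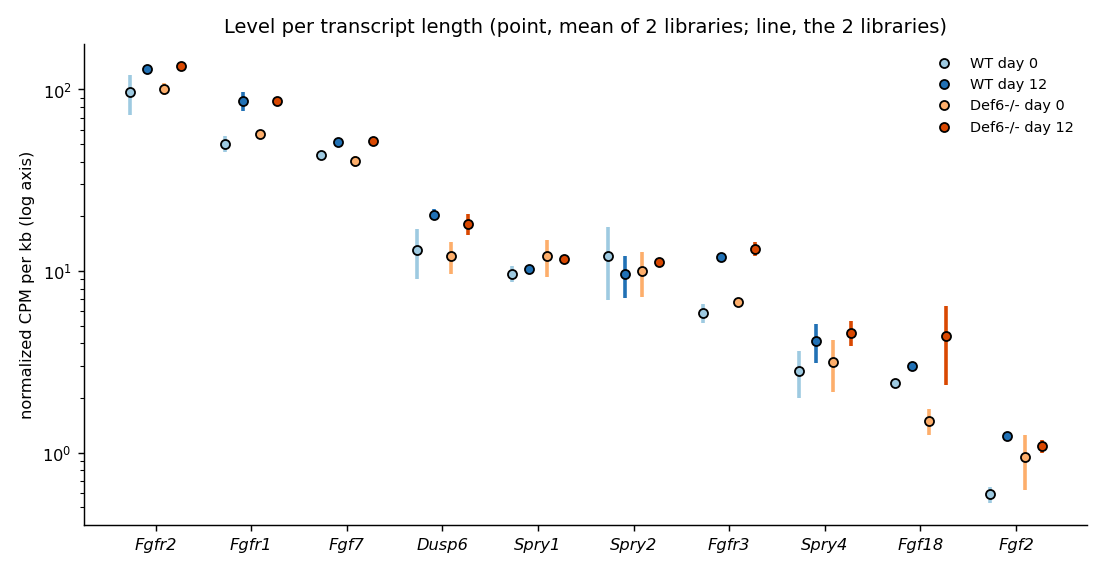
Normalized CPM per kb of transcript (vertical axis, log scale) of the 10 genes in the 4 groups; points are means of 2 libraries and lines join the 2 libraries. Fgfr2, Fgfr1 and Fgf7 lie above 40 in every group mean and the other 7 genes below 21.

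Genes with the most similar log2 levels over the 8 libraries were listed for 1 gene of each role, as a description. For Fgfr3 they were Mme (Pearson's r = 0.997), Ndnf (0.995) and Mef2c (0.994). The other members of the same role are given whatever their rank, here Fgfr1 with 0.957 and Fgfr2 with 0.842. For Fgf2 they were Aaed1 (0.982), Pcdhga2 (0.964) and Myo1d (0.956), while Fgf7 reached 0.653 and Fgf18 0.413. For Dusp6 they were Gsn (0.974), Pstpip1 (0.973) and Ssbp4 (0.969), with Spry4 at 0.809, Spry2 at 0.445 and Spry1 at -0.06. All 8 points share their libraries and fall into the same 2 days, so a high r can come from the day alone.

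The rest of the pathway was read from lists, beside which 18.3% of all genes tested were called in WT (12.7% higher, 5.64% lower) and 16.8% in Def6-/- (12% higher, 4.79% lower). Of 7 tested among the other FGF receptors and co-receptors, Fgfr4 and Fgfrl1 were called higher at day 12 in both genotypes and none lower, with medians of -0.02 in WT and 0.11 in Def6-/-. Fgfrl1, a receptor that lacks the kinase domain, measured 69.5 and 76.7 normalized CPM at day 0 and 125 and 129 at day 12 in WT, and 59.1 and 67.5 against 131 and 131 in Def6-/-. The Fgfrl1 differences were 0.79 (limma adjusted p = 0.0132) and 1.04 (adjusted p = 0.00366). Fgfr4, the fourth kinase receptor, had 0 or 1 read in every day 0 library and 8 to 13 reads at day 12. The Klotho genes Kl and Klb, co-receptors of the endocrine FGFs, were at 0.43 normalized CPM or below in every library.

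Of 9 heparan sulfate proteoglycans tested, Gpc3 and Sdc4 fell in both genotypes and Sdc3 rose in WT, with medians of 0.02 and -0.18. Gpc3, a glypican, fell by 1.24 in WT (limma adjusted p = 0.00311) and by 0.95 in Def6-/- (adjusted p = 0.0109). Sdc4, a syndecan, fell by 0.94 and by 0.85 (adjusted p = 0.0235 and 0.0375).

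Among 7 other FGF ligands and binding proteins tested, of 21 listed and 14 with any read, Fgf9 and Fgf21 fell in both genotypes, with medians of -0.25 and -0.23. Fgf9, a ligand needed for skeletal development, measured 13.02 and 8.13 normalized CPM at day 0 and 0.86 and 0.84 at day 12 in WT, and 11.7 and 13.3 against 2.87 and 0.43 in Def6-/-. Fgf21, an endocrine FGF, was between 1.41 and 4.74 normalized CPM at day 0 and at 0.41 or below at day 12. Fgf1 had no read in any of the 4 day 0 libraries, which allows up to 3 reads in each. It measured 7.46 and 6.28 normalized CPM at day 12 in WT, where it was called higher (adjusted p = 0.0302), and 0.82 and 12.8 in Def6-/-, where it was not (adjusted p = 0.0775). The bone hormone gene Fgf23, a product of osteocytes, was at 0.43 normalized CPM or below in every library.

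Other feedback inhibitors moved in both directions, with medians of -0.46 in WT and -0.64 in Def6-/-. Of 12 tested, Dusp4, a phosphatase of nuclear ERK, rose by 2.84 in WT and by 1.89 in Def6-/- on the log2 scale (limma adjusted p = 0.00104 and 0.00752). Dusp1 fell by 2.43 and by 2.46 (adjusted p = 0.000697 and 0.000661), and Dusp9 fell by 1.64 and by 1.80 (adjusted p = 0.022 and 0.0148). Dusp1, an early-response phosphatase of stress kinases and ERK, thus went from 93.7 to 153 normalized CPM at day 0 to 19.2 to 28.3 at day 12. Dusp9 had far fewer reads, 11 to 14 per library at day 0 and 1 to 3 at day 12.

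Of 9 ERK-responsive transcription genes, 2 were called lower in WT (Ier3 and Fosl1) and 3 in Def6-/- (these and Egr1), and none higher. Fosl1, an AP-1 subunit, measured 44.6 and 22.6 normalized CPM at day 0 and 5.17 and 5.44 at day 12 in WT, and 58.7 and 29.6 against 9.85 and 7.26 in Def6-/-. Its differences were -2.38 and -2.18 (limma adjusted p = 0.00447 and 0.00674). The list had a median of -1.12 in WT and -0.68 in Def6-/-, against -0.0015 and 0.0090 over all genes.

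In the Ras-ERK cascade, 4 of 22 genes were called in WT (1 higher, 3 lower) and 2 in Def6-/- (both higher), where 18.3% and 16.8% of all genes were called in either direction, with medians of -0.0063 and -0.05. Rps6ka1, a kinase downstream of ERK, rose in both genotypes (1.21 and 1.02, limma adjusted p = 0.0128 and 0.0273). Hras and Nras, which encode small GTPases that activate Raf kinases, fell in WT by 1.35 and 0.76 on the log2 scale, with limma adjusted p of 0.0344 and 0.0285. In Def6-/- their differences were -0.81 and -0.64, with adjusted p of 0.178 and 0.0557. Hras measured 214 and 84.8 normalized CPM at day 0 and 59.1 and 46.5 at day 12 in WT. In Def6-/- it measured 84.7 and 86.9 at day 0 and 47.6 and 49.5 at day 12. The WT difference of Hras ran from -2.01 to -0.68 over the left-out libraries, and no interaction was called in this list. Mapk3, which encodes an ERK kinase, had a difference of 0.66 in Def6-/-, where it was called (adjusted p = 0.0429), and 0.39 in WT (adjusted p = 0.184), and its interaction was not called.

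Of 8 skull suture genes, 2 fell in WT (Msx2 and Erf), 1 fell in Def6-/- (Msx2) and none rose, where 5.64% and 4.79% of all genes fell, with medians of -0.24 and -0.27. Msx2, a homeobox gene of the suture, measured 367 and 253 normalized CPM at day 0 and 52.5 and 54.4 at day 12 in WT, and 295 and 278 against 32.4 and 41.8 in Def6-/-. The differences were -2.49 (limma adjusted p = 0.00019) and -2.93 (adjusted p = 8e-05). At day 12, Msx2 was also lower in Def6-/- than in WT by the criterion of the study (-0.53, limma adjusted p = 1). Erf, an ERK-regulated repressor, fell in WT by 0.71 (adjusted p = 0.0445). Msx2 was the single gene called between the genotypes in these 7 lists at either day, and none was called in the interaction.

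Of the calls between days among these other pathway genes, 7 of 19 in WT held whichever library was left out (Fgfr4, Gpc3, Dusp4, Dusp1, Ier3, Fosl1 and Msx2), and 3 of 15 in Def6-/- (Fgfrl1, Dusp1 and Msx2). Each of the others lost its call without at least 1 of the 8 libraries, and Msx2 between the genotypes kept its call in 3 of 8.

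**Figure D5:**
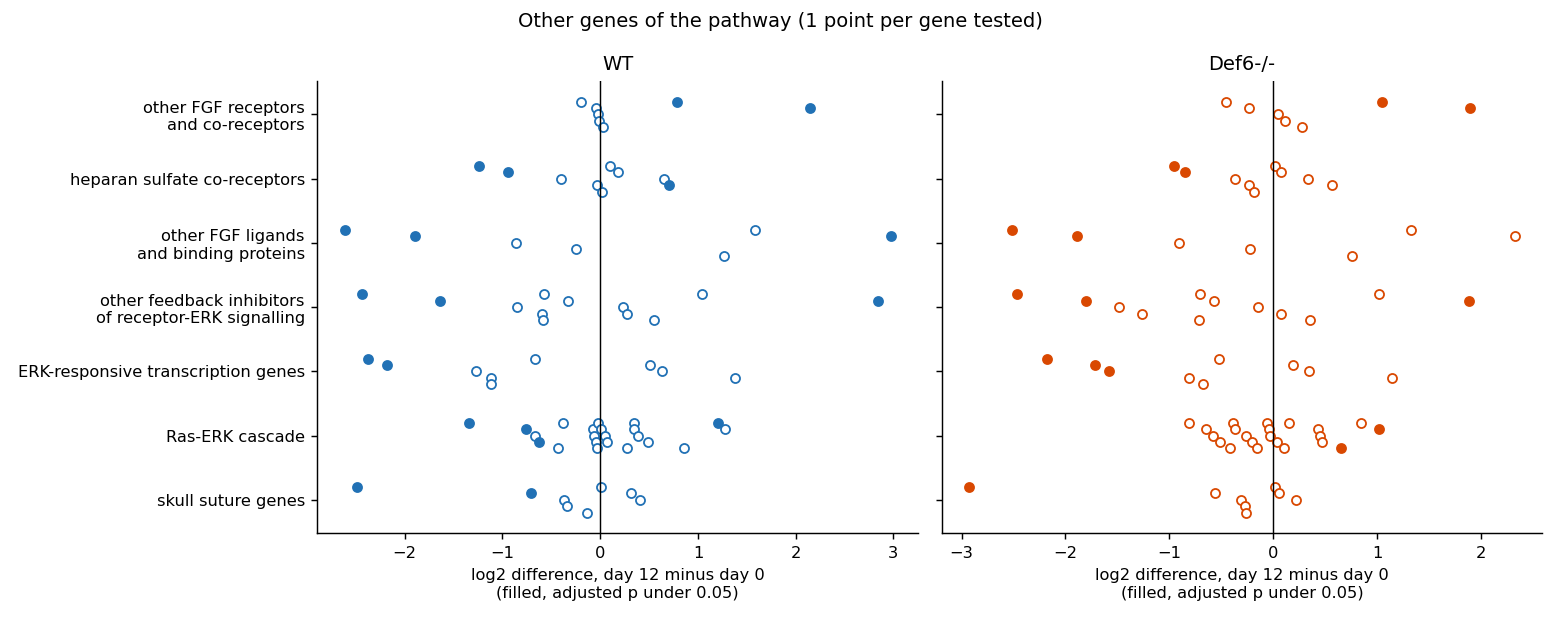
Log2 difference between day 12 and day 0 (horizontal axis) of each gene tested in the 7 lists of other pathway genes (rows), in WT (left) and Def6-/- (right); filled points have an adjusted p under 0.05. Filled points lie on both sides of 0 in WT, and the lowest in Def6-/- is Msx2 at -2.93.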

How the data were processed

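RNA-seq of 8 libraries (WT and Def6-/-, days 0 and 12) was analysed, grouped by the submitters' labels. Per the labels and methods, the authors trimmed reads with fastp, ran the HISAT2 aligner against mm10, assigned reads to genes in HTSeq and made CPM in edgeR (versions not given in the sources used here). The deposited CPM are per 1000000 of all reads handled, including reads with no gene, ambiguous, unaligned or not unique, which are 64.7% to 71.2% of the total, and such rows were left out here. Whole reads were recovered for 99.957% of values above 0 (tolerance 0.01). The 49 exceptions lay in 9 genes, none reported here.

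CPM were rescaled to reads on genes with TMM factors from the genes tested and fitted as log2(CPM + 1) in limma 3.58.1 (R 4.3.3), with 4 group means. The 12348 genes tested had a group with a mean deposited CPM of 1 or more. Alternatives used edgeR 4.0.16 and DESeq2 1.42.0 on recovered reads, the CPM as deposited, a pseudocount of 0.5, no filter, the 2 groups compared only, a replicate block and each library left out. Levels per kb of all exon bases were added as an alternative after seeing the data. TMM factors from all genes were added as an alternative after seeing the data, when results under both sets of factors were known. The fit was tested on simulated data. Members and lists were chosen with earlier results of these data known. From each list and comparison at most 3 genes called in each direction were named, those with the smallest p. Kl, Klb and Fgf23 were named after their values were seen. Genes that overlap a member were named where they share exon bases with it, which narrows the rule after the data were seen. A gene that the rule names is not reported here. Genes whose levels most resembled a member's were named for 1 gene of each role. Motifs were searched in RefSeq windows (GRCm38.p6), transcript lengths came from GENCODE (GRCm38, the same build as mm10). Counting error alone sets the limit of 3 reads given for a count of 0.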

Additional observations from a re-analysis of the deposited data

Results flagged for a closer look

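The interaction of genotype and day was tested in limma. It had an unadjusted p under 0.05 for 5 marker genes outside the FGF pathway that the list rule names. They were 3 of 7 adipocyte markers tested and 2 of 10 osteoblast markers, where 1.13% of all genes tested passed. Values are the day change in Def6-/- minus that in WT on the log2 scale: 1.66 for Adipoq, 1.91 for Cfd and 1.97 for Plin1, which are adipocyte genes, and 0.80 for Alpl and 1.13 for Bglap, which are osteoblast genes. Adipoq, Cfd and Bglap had no read in any day 0 library, so their fitted values depend on the pseudocount. The limma adjusted p was 0.9998 for each. With each of the 8 libraries left out in turn, the call held in 8 fits for Plin1 and for Cfd and in 7 for Adipoq. It held in 4 for Alpl and in 1 for Bglap.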

How the results depend on the processing

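A few alternatives and the left-out libraries moved the number of FGF genes called between days. In WT, the count of 2 became 1 with the CPM as deposited and 0 in a fit of the 2 groups compared. In Def6-/-, the count of 1 became 0 with the CPM as deposited and 3 in a fit of the 2 groups compared. Leaving out each library gave 0 to 3 in WT and 0 to 5 in Def6-/-, with 5 without either WT day 0 library, where 19.7% and 19.9% of all genes were called higher (12% with all libraries). It gave 0 to 1 higher and 0 to 1 lower at day 0 and in the interaction, and 0 at day 12. edgeR, DESeq2, a pseudocount of 0.5, no filter and TMM factors from all genes left these counts as they were.

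With replicate number as a block, Fgfr1 also passed in Def6-/- (adjusted p = 0.0458), for a count of 2, and the block changed no other count of FGF genes. Deviations of same-numbered libraries correlated at 0.00232 to 0.327, with the highest value between the day 0 groups. Since not every pair was above 0.1, the numbers were not taken to pair the libraries. Fitting the 2 groups compared gave 1085 calls over all genes between days in WT (2261 in the fit of 8), 3917 in Def6-/- (2075), 60 between genotypes at day 0 (284) and 560 at day 12 (173). DESeq2 gave 85 at day 12 and 45 in the interaction (139), and no filter 459 and 326. Left-out libraries gave 834 to 5705, 927 to 4315, 156 to 4585, 121 to 458 and 99 to 3333 calls in the 5 comparisons.

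Directions that turned were of genes not called with all libraries. With the CPM as deposited Fgf7 became 0.04 and Dusp6 0.06 at day 0 between genotypes. Over the left-out libraries, day differences ran from -0.19 to 0.65 for Fgf2 in Def6-/-, -0.05 to 0.25 and -0.34 to 0.32 for Spry1 in WT and Def6-/-, and -0.87 to 0.40 and -0.18 to 0.61 for Spry2. Genotype differences at day 0 ran from -0.25 to 0.48 for Fgfr2, -0.06 to 0.61 for Spry1, -0.83 to 0.45 for Spry2, -0.31 to 0.59 for Spry4 and -0.52 to 0.37 for Dusp6. At day 12 they ran from -0.16 to 0.19 for Fgfr1, -0.04 to 0.09 for Fgf7, -0.26 to 0.91 for Fgf18, -0.10 to 0.62 for Spry2, -0.17 to 0.51 for Spry4 and -0.36 to 0.01 for Dusp6. The interaction ran from -0.36 to 0.01 for Fgfr1, -0.43 to 0.31 for Fgfr2, -0.21 to 0.11 for Fgfr3, -0.44 to 0.23 for Spry1, -0.19 to 1.09 for Spry2, -0.42 to 0.48 for Spry4 and -0.54 to 0.35 for Dusp6, and that of Spry4 was -0.01 in DESeq2 and with TMM factors from all genes and -0.03 with the CPM as deposited. The causes were not tested.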
